A study of Homo sapiens with 10 samples.

Results

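Acetylation of histone H3 at lysine 27 (H3K27Ac) far from genes was examined in MDAMB231 cells, a human breast cancer cell line with mesenchymal traits that lacks the estrogen and progesterone receptors. Gene desert peaks are here the H3K27Ac peaks on chromosomes 1 to 22 with no start site of a protein-coding transcript (GENCODE 44, on GRCh37, hg19) within 200 kb of their bounds. They were chosen by their place in the deposited H3K27Ac list and by the annotation, and 3537 of the 36402 H3K27Ac peaks on these chromosomes qualified, out of 37495 peaks in the whole list. The cells were grown in DMEM with 5% FBS and no treatment. ChIP-seq was done for H3K4me1, H3K4me3 and H3K27Ac with 2 samples each and 1 input sample, and FAIRE-seq, which recovers DNA free of crosslinked protein after 1% formaldehyde, with 2 samples and 1 input sample. Each assay has a single list made from its combined samples, so no value below carries an error between replicates, and the lists do not give read depth. Intervals are 95% Wilson intervals for shares, and they cover counting error over loci only, since peaks are neighbours on chromosomes and not replicates.

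Enhancers are stretches of DNA that raise the transcription of genes that may lie far along the chromosome. Active enhancers usually carry H3K27Ac together with H3K4me1 and are open to nuclease or FAIRE, whereas H3K4me3 marks start sites of active or poised genes. Gene deserts are long stretches without protein-coding genes. Many of them lie beside genes of development, and several are known to hold enhancers for such genes and long noncoding RNA (lncRNA) genes.

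The sequences shown first come from the largest clusters of gene desert peaks. They are the 200 reference bases (GRCh37, plus strand) at the centre of the tallest FAIRE peak in the H3K27Ac peak with the highest score (the widest where scores tie) of 6 of the 10 largest clusters, all described further on. Capitals mark TGANTCA, counted here as an AP-1 match with any middle base, which reads alike on both strands when that base is ignored. They also mark TGTTTAC or its reverse complement GTAAACA, the forkhead motif.
RASGRP1-THBS1 window, chr15:39421140-39421339: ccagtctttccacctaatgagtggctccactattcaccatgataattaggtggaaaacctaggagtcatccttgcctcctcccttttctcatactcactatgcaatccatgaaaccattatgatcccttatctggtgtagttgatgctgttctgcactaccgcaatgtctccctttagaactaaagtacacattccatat
SOX9-SLC39A11 window, chr17:70389708-70389907: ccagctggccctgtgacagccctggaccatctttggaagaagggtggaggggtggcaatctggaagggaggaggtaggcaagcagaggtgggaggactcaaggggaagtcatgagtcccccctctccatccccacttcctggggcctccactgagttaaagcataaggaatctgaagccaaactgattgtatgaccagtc
ADARB2-PFKP window, chr10:2154236-2154435: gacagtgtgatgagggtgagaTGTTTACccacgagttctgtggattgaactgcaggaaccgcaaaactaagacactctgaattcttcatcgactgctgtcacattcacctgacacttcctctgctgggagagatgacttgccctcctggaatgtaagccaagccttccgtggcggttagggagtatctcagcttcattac
CWC22-UBE2E3 window, chr2:181386247-181386446: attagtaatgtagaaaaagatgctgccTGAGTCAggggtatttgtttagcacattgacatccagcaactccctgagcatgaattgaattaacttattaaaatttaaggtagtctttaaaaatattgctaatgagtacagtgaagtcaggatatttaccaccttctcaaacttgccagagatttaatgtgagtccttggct
TMEM132D window, chr12:130049522-130049721: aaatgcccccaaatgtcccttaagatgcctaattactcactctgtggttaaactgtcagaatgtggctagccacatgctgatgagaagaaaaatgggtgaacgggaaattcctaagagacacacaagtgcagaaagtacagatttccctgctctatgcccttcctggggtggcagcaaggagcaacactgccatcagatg
KIRREL3-ETS1 window, chr11:128077566-128077765: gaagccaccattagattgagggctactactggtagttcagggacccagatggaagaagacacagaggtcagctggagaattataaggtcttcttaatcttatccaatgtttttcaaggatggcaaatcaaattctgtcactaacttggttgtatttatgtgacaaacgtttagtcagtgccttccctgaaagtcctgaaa
The window between RASGRP1 and THBS1 lies in introns of the lncRNA genes ENSG00000259345 and LINC02694, the window between SOX9 and SLC39A11 in an intron of the lncRNA gene LINC00511, and the TMEM132D window in an intron of that protein-coding gene. The other 3 lie in no annotated gene. Of the 6 windows, 1 holds an AP-1 match and 1 a forkhead match.

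The next windows, taken in the same way, were picked after the matches had been counted. They are 3 of the windows with 3 or more AP-1 matches and not the full set of such windows. Among the windows considered, 1 had 5 matches, and it is not shown.
CENPE-TACR3 window, chr4:104419560-104419759: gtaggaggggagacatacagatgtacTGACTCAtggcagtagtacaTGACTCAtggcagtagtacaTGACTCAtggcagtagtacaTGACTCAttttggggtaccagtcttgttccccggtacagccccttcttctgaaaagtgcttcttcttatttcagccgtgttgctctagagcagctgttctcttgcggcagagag
CDH26-CDH4 window, chr20:58824597-58824796: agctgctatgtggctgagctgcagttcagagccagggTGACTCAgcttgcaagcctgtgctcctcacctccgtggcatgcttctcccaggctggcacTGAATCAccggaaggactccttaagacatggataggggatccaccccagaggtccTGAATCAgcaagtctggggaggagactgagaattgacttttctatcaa
AGA-TENM3 window, chr4:180031631-180031830: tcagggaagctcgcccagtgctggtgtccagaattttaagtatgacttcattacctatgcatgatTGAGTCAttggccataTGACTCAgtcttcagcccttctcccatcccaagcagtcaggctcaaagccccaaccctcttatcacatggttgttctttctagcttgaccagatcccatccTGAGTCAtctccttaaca
The window between CENPE and TACR3 has 4 matches that begin 20 bases apart. They lie in a repeat, with the same bases between each match and the next, so they are copies of a single stretch. The windows between CDH26 and CDH4, in an exon of the lncRNA gene MIR646HG, and between AGA and TENM3 have 3 matches each. In the former, 2 of the 3 have A as the middle base.

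The cell line was checked at start sites of marker genes. VIM, CD44, CAV1, EGFR, AXL and ZEB1 were listed as mesenchymal or basal genes, with earlier results of these data known. All had both an H3K27Ac and an H3K4me3 peak within 1 kb of a start (6 of 6 genes). Of all protein-coding genes, 67.3% had H3K4me3 and 62.9% H3K27Ac there. Of the genes listed as luminal or epithelial, ESR1, PGR, GATA3, CDH1, KRT5 and EPCAM, 2 of 6 (GATA3 and EPCAM) had H3K27Ac there, and 4 of 6 (these and the receptor genes ESR1 and PGR) had H3K4me3, near the share of all genes. CDH1, the epithelial cadherin, and KRT5 had neither. KRT5 is a keratin of basal epithelial cells, so the second list was not free of basal genes. EPCAM, an epithelial adhesion molecule, had an H3K27Ac score of 1255, and GATA3, a luminal transcription factor, one of 383.

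Peaks were sparse in deserts. Stretches over 200 kb from any protein-coding start numbered 1220 and made up 669 Mb, or 24.9% of the sequenced bases of chromosomes 1 to 22. They held 9.72% of the H3K27Ac peaks, 13.1% of the H3K4me1 peaks, 11% of the FAIRE peaks and 4.57% of the H3K4me3 peaks. There were 5.29 H3K27Ac peaks per Mb of desert, against 11 per Mb in sequence 5 kb to 200 kb from a start and 49.8 per Mb within 5 kb of one. For FAIRE these densities were 7.33, 16.4 and 40.9 per Mb, and for H3K4me1 5.17, 10.1 and 19 per Mb. Chromosome 13 had the largest part of its H3K27Ac peaks in deserts (22.2%, 237 peaks), with 42.7% of its sequence there. Peaks were sparsest in the deserts of chromosomes 19 (0.634 per Mb, 2 peaks), 21 (1.44 per Mb, 16 peaks) and 18 (1.48 per Mb, 33 peaks).

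Of the 1220 deserts, 1213 had at least 1 sequenced base, and the rest could hold no peak. Among all of them, 688 held at least 1 H3K27Ac peak and 532 held none. The former had a median length of 0.470 Mb and a median of 3 peaks, and the latter a median length of 0.134 Mb. Long deserts were rarely empty, since 52 of the 58 of 2 Mb or more held a peak, but peaks were sparser in them, at 3.10 per Mb against 7.47 per Mb in deserts of 0.1 to 0.5 Mb. The deserts named next were picked after their counts were seen. The fullest desert, between GATA3 and CELF2, an RNA-binding protein gene, held 36 peaks in 2.34 Mb. The desert between CITED2, a transcriptional coregulator gene, and GJE1 held 33, and the one between ZEB2, a repressor of epithelial genes, and ACVR2A held 32. By sequenced length, the longest desert without any H3K27Ac peak lay between NCAM2 and MRPL39 on chromosome 21, with 3.93 Mb. It was followed by 3.71 Mb on chromosome 13, to the right of OLFM4, and by 2.55 Mb between the cadherin genes CDH8 and CDH11.

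The score of a histone peak is the p-value of its MACS call as a negative log10, multiplied by 10. Because the members were selected on the H3K27Ac list, their scores and widths are given as a description. Their median score was 322 (quartiles 125 and 996), against 384 for distal peaks, those with a protein-coding start within 200 kb but none within 5 kb (19075 peaks), and 1055 for proximal peaks, those within 5 kb of one (13790 peaks). Their median width was 2265 bp, against 2482 bp and 3020 bp. A score of 3100 or more, where the score no longer ranks peaks because most of them sit at exactly 3100, was reached by 313 desert peaks (8.85%), 1828 distal peaks (9.58%) and 1718 proximal peaks. At the other end, 665 desert peaks (18.8%) scored under 100, against 17.2% of distal and 6.23% of proximal peaks.

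**Figure D1:**
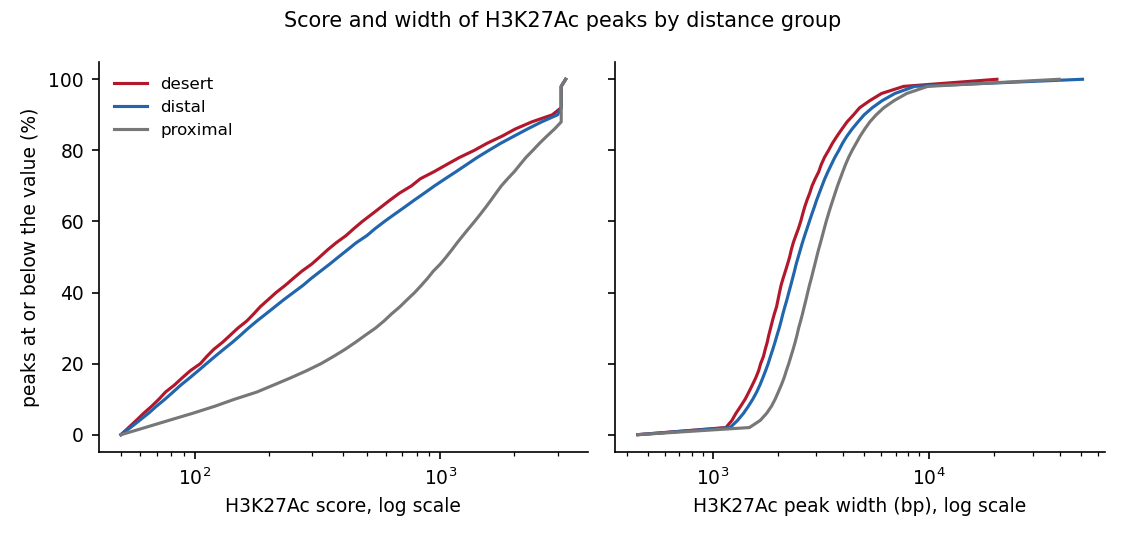
Share of H3K27Ac peaks (%, vertical axis) at or below each score (left) and width in bp (right), both on log axes, for desert (n = 3537), distal (n = 19075) and proximal peaks (n = 13790). The desert curves lie slightly to the left of the distal ones, with medians of 322 against 384 for score and 2265 bp against 2482 bp for width, and the jump at the right of the score panel is the value 3100.

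Of the peaks with the highest scores, whose order above 3100 carries no rank, 5 are named here, and they lay in separate deserts. They were between IGFBP3, which binds insulin-like growth factors, and the tensin gene TNS3 (3223), and between NUDT12 and the ephrin gene EFNA5 (3221). Others were inside RAD51B, a DNA repair gene (3215), between MEF2C, a transcription factor gene, and CETN3 (3209), and between ADARB2 and PFKP (3208). These 5 had H3K4me1 and FAIRE. The widest peak, 20551 bp within PVT1 between MYC and GSDMC, held 8 FAIRE peaks and no H3K4me1 peak, with a score of 2304. It was followed by 14672 bp in LINC00511 beyond SOX9, by 14009 bp and 13684 bp between KRR1 and PHLDA1, and by 13255 bp inside ATRNL1. Of these 5, those at PVT1 and ATRNL1 and the 14009 bp peak lacked H3K4me1.

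The other marks were not used to choose the peaks. An H3K4me1 peak shared at least 1 base with 2472 of the 3537 desert peaks (69.9%, 68.4% to 71.4%), where the share for all H3K27Ac peaks on these chromosomes was 55.3%. FAIRE was found at 2561 (72.4%, 70.9% to 73.9%, against 67.9% of all) and H3K4me3 at 365 (10.3%, 9.36% to 11.4%, against 38.3% of all). Most of the distance from the overall shares came from the proximal peaks, of which 32.1% had H3K4me1 and 79.6% H3K4me3. Distal peaks had H3K4me1 at 69.3%, FAIRE at 74.0% and H3K4me3 at 13.7%. Wide peaks share a base with another peak more often, so desert and distal peaks were also compared within 10 classes of H3K27Ac width by the Mantel-Haenszel odds ratio. It was 1.18 for H3K4me1 (95% interval 1.09 to 1.28), 1.10 for FAIRE (1.01 to 1.20) and 0.732 for H3K4me3 (0.651 to 0.822). Neither of the first 2 held its direction. Against distal peaks more than 50 kb from a start they were 0.987 and 0.966, with a limit of 500 kb in place of 200 kb 0.805 and 0.922, and within classes of score the FAIRE odds ratio was 0.986. The H3K4me3 odds ratio stayed under 1 in these settings, but its interval included 1 against distal peaks from 50 kb (0.886, 0.777 to 1.01) and at 500 kb (0.951, 0.785 to 1.15).

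Both H3K4me1 and FAIRE were present at 2059 desert peaks (58.2%), which had a median H3K27Ac score of 590 and a median width of 2660 bp. H3K4me1 without FAIRE was found at 413 (11.7%, median score 189), FAIRE without H3K4me1 at 502 (14.2%, median score 180) and neither at 563 (15.9%, median score 127). The split of distal peaks was near this, with 57.7%, 11.7%, 16.4% and 14.3%. H3K4me3 was present at 138 of the 563 peaks with neither (24.5%) and at 132 of the 2059 with both (6.41%). Marks were more frequent at stronger peaks. Over 4 classes of near equal size, from the lowest to the highest score, H3K4me1 was found at 48.4%, 61.4%, 78.7% and 91.0% and FAIRE at 53.4%, 63.0%, 80.3% and 92.9%. At least 2 FAIRE peaks lay in 42.7% of the highest class and in 2.15% of the lowest. Stronger peaks were also wider, with median widths of 1523 bp in the lowest class and 4002 bp in the highest. From the narrowest to the widest of 4 classes of width, H3K4me1 went from 47.3% to 90.6% and FAIRE from 50.3% to 92.8%. Score and width were not separated here. Where present, the strongest H3K4me1 peak had a median score of 148, against 157 at distal peaks, the tallest FAIRE peak a median height of 69.9, against 74.1, and the strongest H3K4me3 peak a median score of 153, against 499.

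The strongest desert peaks with neither mark were named as exceptions. A peak of 10133 bp with a score of 2988 lay between HAS2, a hyaluronan synthase gene, and ZHX2, and had no H3K4me3 either. A peak of 4401 bp with a score of 2453, between MTX2 and HNRNPA3, covered the starts of LINC01116 and LINC01117 and had H3K4me3 with a score of 3100. The last, with a score of 1932, lay inside MARCHF1, a ubiquitin ligase gene. The tallest FAIRE peak in any desert peak (height 219) lay between OPA1 and HES1, a Notch target gene. The next had heights of 202 between TGFB2, a growth factor gene, and LYPLAL1, 199.4 in the wide peak within PVT1, 199.2 between BOD1L1 and CPEB2 and 191 inside PPM1H, a phosphatase gene.

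H3K4me1 and FAIRE were less frequent, and H3K4me3 more frequent, at the largest distances from a start. At 200 to 500 kb, 1860 of 2535 peaks had H3K4me1 (73.4%, 71.6% to 75.1%), at 500 to 1000 kb 528 of 789 (66.9%, 63.6% to 70.1%), and at over 1000 kb 84 of 213 (39.4%, 33.1% to 46.1%). For FAIRE the shares were 74.4%, 70.7% and 54.5%, and for H3K4me3 9.47%, 11.2% and 17.4%. Median scores were 352, 287 and 175. Compared with peaks at 200 to 500 kb within classes of width, peaks at 500 to 1000 kb had an odds ratio of 0.794 for H3K4me1 (0.659 to 0.956), and the intervals for FAIRE (0.916, 0.758 to 1.11) and H3K4me3 (1.2, 0.924 to 1.55) included 1. Peaks at over 1000 kb had an odds ratio of 0.289 for H3K4me1 (0.212 to 0.393), 0.546 for FAIRE (0.403 to 0.741) and 1.99 for H3K4me3 (1.36 to 2.92). They came from 51 deserts, and 2 deserts, between ZEB2 and ACVR2A and between AGA and TENM3, gave 19 each. Without those 2 deserts the odds ratios were 0.243, 0.450 and 2.29. Peaks of a desert are neighbours, so these intervals are too narrow. Scores also fell with distance and were not held fixed, so the changes in marks were not separated from score. The peak farthest from any protein-coding start, 2716 kb from ARAP2 and 2768 kb from PCDH7 on chromosome 4, had a score of 102, an H3K4me1 peak with a score of 57.2 and no FAIRE peak. The next in distance were in the same desert, with scores of 191 and 976.

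**Figure D2:**
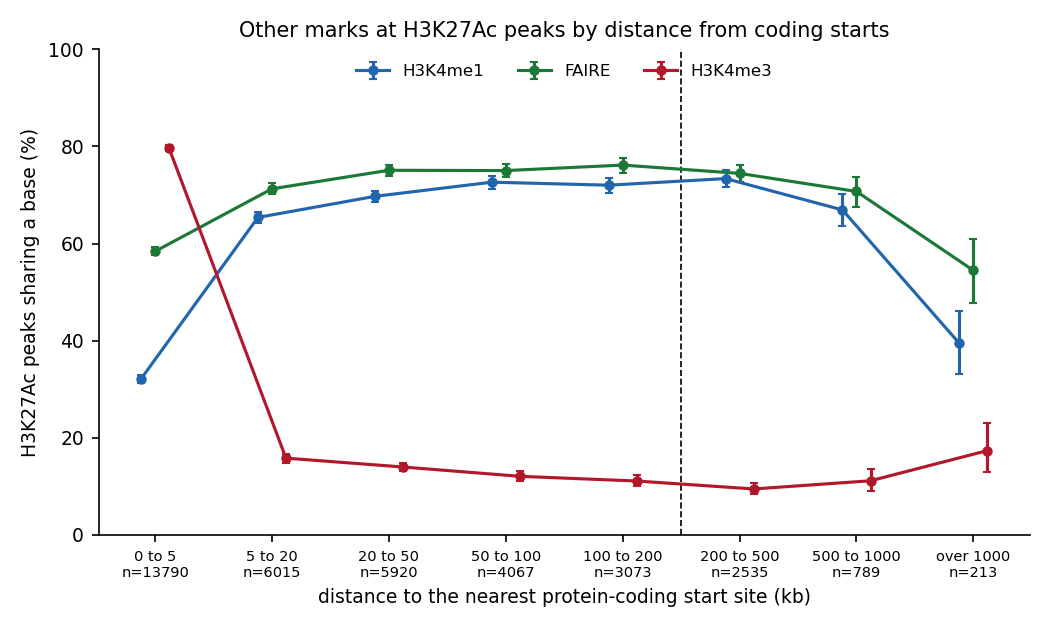
Share of H3K27Ac peaks (%) that share a base with an H3K4me1, FAIRE or H3K4me3 peak, by distance in kb from the nearest protein-coding start, with 95% Wilson intervals and the number of peaks under each class. The dashed line is the 200 kb limit; to its right the H3K4me1 share goes from 73.4% to 39.4% and the FAIRE share from 74.4% to 54.5%.

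On either side of the limit the values were as follows. The 358 peaks just inside it, at 200 to 220 kb, had H3K4me1 at 74.3%, FAIRE at 79.9%, H3K4me3 at 11.2% and a median score of 412. The 428 peaks just outside, at 180 to 200 kb, had 73.1%, 76.2% and 7.24%, with a median score of 323.

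Only desert peaks entered the clusters. A cluster therefore stops at the 200 kb limit, and a lone peak can have H3K27Ac peaks from outside the limit within 50 kb of it. Desert peaks were joined where the gap between neighbours was at most 50 kb, which gave 1814 clusters. Single peaks made up 1084 of them, 599 had 2 to 4 peaks, and 131 had 5 or more. The last group held 936 peaks, or 26.5% of the members, over a median span of 108 kb, and 17 clusters with 10 or more held 213. Peaks in clusters of 5 or more had a median score of 472 and H3K4me1 at 82.5%, FAIRE at 78.7% and H3K4me3 at 7.16%. Lone peaks had a median score of 205 and 56.5%, 67.3% and 15.0%, respectively. Within classes of width, peaks in clusters of 5 or more against lone peaks had an odds ratio of 2.75 for H3K4me1 (2.21 to 3.43), 1.18 for FAIRE (0.949 to 1.47) and 0.380 for H3K4me3 (0.274 to 0.527). Peaks of a cluster share their place, and a wide H3K4me1 peak can mark several of them, so these intervals are too narrow and no difference is drawn from them.

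The cluster with the most peaks, 23 in 223 kb at chr15:39370973-39594262, lay between RASGRP1, an activator of Ras, and THBS1, which encodes the matrix glycoprotein thrombospondin-1 and whose start was 279 kb away. Its peaks had a median score of 395, 21 of them had H3K4me1 and 17 FAIRE, and starts of 4 lncRNA genes lay within it or 10 kb of it. THBS1 had H3K27Ac and H3K4me3 at its start, and RASGRP1 only H3K4me3. The next cluster, at chr8:29410826-29632989 beyond DUSP4, a phosphatase of MAP kinases, had 18 peaks in 222 kb with the higher median score of 1389, and 7 of them reached 3100. Both DUSP4, 203 kb away, and SARAF had H3K27Ac and H3K4me3.

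The cluster of 14 peaks at chr17:70333106-70589481 began 216 kb from SOX9, a transcription factor gene of development. It overlapped LINC00511, whose start with an H3K4me3 peak is at the right end. H3K4me1 was found at 9 of its peaks and FAIRE at 9. The cluster of 13 peaks at chr10:2111203-2268767, between ADARB2 and the phosphofructokinase gene PFKP, had the fewest peaks with H3K4me1 (4) and FAIRE (4) among the 10, and H3K4me3 at 4. ADARB2 had no H3K4me3 or H3K27Ac at a start. A cluster of equal number at chr2:181382490-181629098 began 510 kb from CWC22 and ended 203 kb from UBE2E3, a ubiquitin-conjugating enzyme gene, where the lncRNA gene SCHLAP1 starts. H3K4me1 was at 11 of its peaks and FAIRE at 11. The other cluster of 13, at chr12:130004784-130156921, lay wholly inside TMEM132D, with starts of that gene on both sides. TMEM132D had neither H3K4me3 nor H3K27Ac at a start, although 12 of the 13 peaks had H3K4me1 and 11 had FAIRE.

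Of the clusters of 12 peaks, the one at chr11:127863859-128082315 ended 293 kb from ETS1, a transcription factor gene with both marks at its start, and its median score was 1024. The one at chr2:12134650-12318567 lay between LPIN1, a phosphatidate phosphatase gene, and TRIB2, a pseudokinase gene. A start of the lncRNA gene MIR3681HG lay within that cluster or 10 kb of it. The one at chr13:109893951-110037360 ended 402 kb from IRS2, an adaptor of the insulin receptor, and H3K4me3 was found at 4 of its peaks. The cluster at chr8:129059733-129383543, 310 kb beyond MYC and partly along PVT1, had 11 peaks. It was the longest of all clusters at 324 kb, all 11 peaks had FAIRE, and 6 had H3K4me1.

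**Figure D3:**
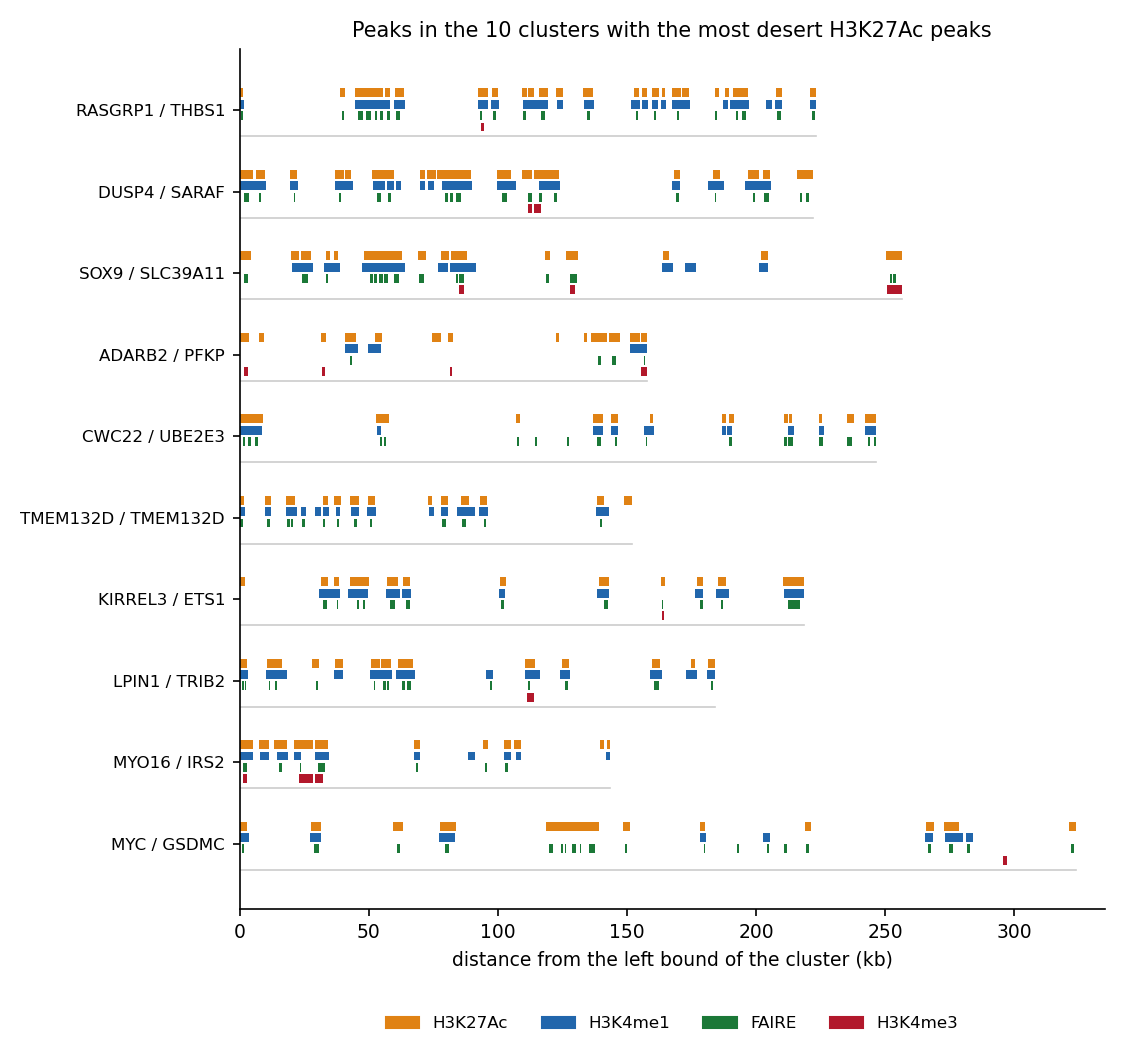
Peaks of the 4 lists in the 10 clusters with the most desert H3K27Ac peaks, drawn to scale in kb from the left bound of each cluster and named by the protein-coding genes on its left and right. H3K4me1 was at 21 of 23 peaks of the RASGRP1 / THBS1 cluster and at 4 of 13 of the ADARB2 / PFKP cluster, and H3K4me3 was at no more than 2 peaks outside the SOX9, ADARB2 and MYO16 rows.

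Long protein-coding genes can hold desert peaks far from their starts, and 545 of the members (15.4%, 14.3% to 16.6%) shared a base with one, against 55.3% of distal and 95.5% of proximal peaks. This share was 33.5% with 1 start site per gene and 7.27% with starts of all transcripts, so it depends on which starts are accepted. The genes concerned numbered 183, with a median length of 525 kb. Picked after the counts were seen, TMEM132D held 14 peaks, the neuregulin gene NRG1 13, the transcription factor gene RUNX1 12, RBMS3 11, and FHIT and the glypican gene GPC6 10 each. Peaks inside a protein-coding gene had H3K4me1 at 73.0% and FAIRE at 78.3%, those in a lncRNA gene alone (1329 peaks) at 71.9% and 73.7%, and those in neither (1663 peaks, 47.0%) at 67.2% and 69.4%.

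A start of a lncRNA transcript lay within 10 kb of 648 desert peaks (18.3%, 17.1% to 19.6%), against 20.9% of distal peaks (20.4% to 21.5%). Within 2.5 kb the shares were 9.25% (327 peaks) and 10.6%. The 327 peaks near a lncRNA start had H3K4me3 in 86 cases (26.3%), and the other 3210 in 279 (8.69%), an odds ratio of 3.76 (2.85 to 4.98) within classes of width. H3K4me1 differed less, with 67.3% near a start and 70.2% elsewhere. Of the 365 desert peaks with H3K4me3, 279 were thus at no annotated lncRNA start.

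The lncRNA genes with a start within 2.5 kb of a desert peak numbered 322, and 96 of them (29.8%, 25.1% to 35%) had H3K4me3 within 1 kb of that start, 35 at a score of 3100 or more. Of all 18372 lncRNA genes on chromosomes 1 to 22, 25.1% had H3K4me3 within 1 kb of any of their starts. This is a looser measure, and its value lies at the edge of that interval. Among the 2064 with a start equally close to a distal peak the share was 43% (40.9% to 45.1%). Scores above 3100 give no rank here either. Above it were ENSG00000230773, between FBXO11 and FOXN2 (3220), LINC02100, between H3Y1 and the cadherin gene CDH18, each over 1000 kb away (3177), and ZFPM2-AS1, 529 kb from ZFPM2 and 208 kb from OXR1 (3174). At exactly 3100 followed ENSG00000271192 and ENSG00000272121, which share an H3K27Ac peak between ABHD5 and TOPAZ1, and LINC02742 between METTL15 and KCNA4. LINC03061 and MIR181A1HG, the host gene of a microRNA, had equal scores. The H3K27Ac peaks at ZFPM2-AS1, LINC02742, MIR181A1HG and LINC03061 and the shared one all scored 3100 and had both H3K4me1 and FAIRE, with FAIRE heights of 156, 117, 150, 36.9 and 75.8. The peaks at ENSG00000230773 and LINC02100 scored less and had no H3K4me1, and FAIRE heights of 34.0 and 41.6. Genes tied at an H3K4me3 score of 3100 were ordered by H3K27Ac score, so the H3K27Ac score of those named follows from the pick. Next in that order came LINC00511, whose peak had FAIRE but no H3K4me1. After it came LINC01116, LINC01117 and LINC00662, whose peaks had neither.

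Protein-coding genes whose start bounds a desert with a peak numbered 1203. H3K4me3 lay within 1 kb of a start for 834 of them (69.3%, 66.7% to 71.9%), against 67.3% of all 18893 protein-coding genes on these chromosomes, so these genes were near the background. Genes that bound only deserts without a peak were below it, with 420 of 753 (55.8%, 52.2% to 59.3%). Over 5 classes of desert length, with each gene counted once in the class of its longest desert, the odds ratio of genes beside deserts with a peak against those beside deserts without one was 2.09 (1.69 to 2.58). The shares within a class were counted in another way, with a gene beside several deserts entered for each kind and length of desert it bounds. In deserts of 0.5 to 1 Mb the shares were 67.5% of 323 genes and 37.6% of 101 genes, and in those under 0.1 Mb 67.8% of 121 and 62.4% of 396. Genes at both ends of a desert share its peaks, and no pairing of a peak with a gene was measured. With 1 start site per gene, which also changes the deserts, the share beside deserts with a peak was 61.8% of 1617 genes. No share over all genes is given for this setting, so it is not set against the background.

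**Figure D4:**
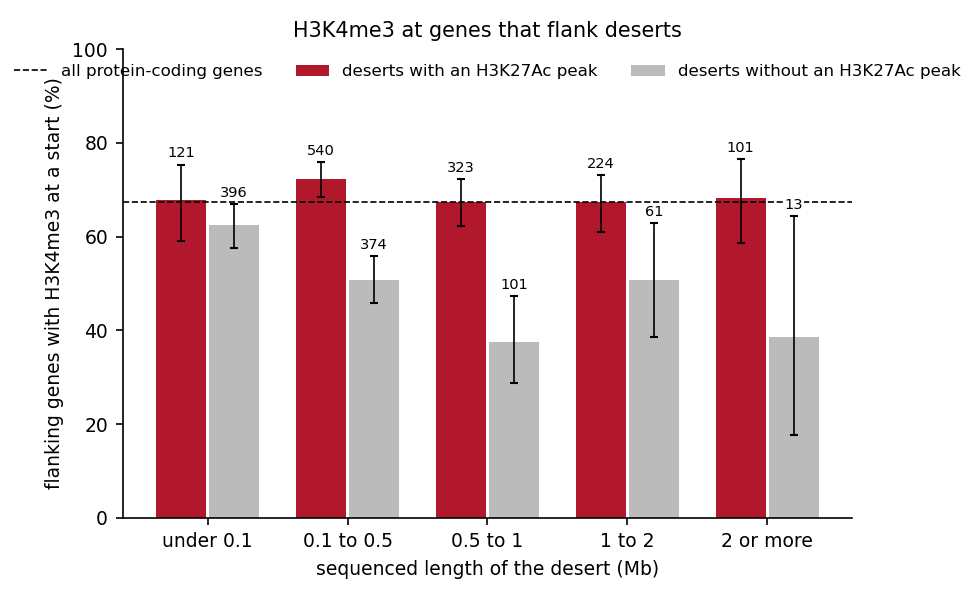
Share of flanking protein-coding genes (%) with an H3K4me3 peak within 1 kb of a start, by sequenced length of the desert in Mb, for deserts with (red) and without (grey) an H3K27Ac peak. Bars start at 0, error bars are 95% Wilson intervals, numbers are the genes counted in each bar (a gene can be in several), and the dashed line is the 67.3% of all protein-coding genes; the red bars lie between 67.4% and 72.4%, and the grey ones between 37.6% and 62.4%.

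Families were counted among the flanking genes by the start of their symbols. Transcription factors of development, such as SOX, FOX and PAX genes, were 45 of the 1203 genes beside deserts with a peak (3.74%), 20 of the 753 beside empty ones (2.66%) and 210 of all 18893 (1.11%). Adhesion genes were 34 (2.83%), 9 (1.20%) and 99 (0.524%), and genes of signal families, such as BMP, FGF, ephrin and semaphorin genes, 20 (1.66%), 7 (0.930%) and 101 (0.535%). H3K4me3 was at a start of 30 of the 45 transcription factors, 6 of the 20 and 92 of the 210. For adhesion genes it was at 17 of 34, 2 of 9 and 40 of 99, and for signal families at 16 of 20, 6 of 7 and 74 of 101. The genes named next were chosen after their values were seen. Among the transcription factors, GATA3 had 36 desert peaks in the deserts it bounds, SOX9 33, ZEB2 32 and NR2F2, a nuclear receptor gene, 27. Among the adhesion genes, PCDH7 had 30 and ROBO1, an axon guidance receptor gene, 18, and both had H3K4me3, whereas the cadherin genes CDH9 (13 peaks) and CDH2 (12 peaks) had none. Among the signals, EFNA5 had 22, NRG1 19, TGFB2 13 and EFNB2 12, all with H3K4me3. The list by symbol is mixed, since ephrins and some semaphorins are bound to the membrane, FGF12 and FGF14 stay inside the cell, and TGFBR2, with 19, is a receptor gene. These counts are no measure of control by the peaks.

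The windows of 200 bases at FAIRE centres were searched for motifs in the 2561 desert peaks with FAIRE. TGANTCA was found in 970 windows (37.9%, 36% to 39.8%), against 35.1% of 14122 distal windows (34.3% to 35.9%) and 17.8% of 8051 proximal ones. In windows 1000 bases to the left and right of the same centres it was found in 6.76% and 7.22%, with a GC content of 38.7% against 41.5% at the centres. With C or G as the middle base the share was 28.7% at the desert centres (26.9% to 30.4%), and 3.44% and 3.20% beside them. At distal centres it was then 27.3% (26.5% to 28%), and these intervals overlap. TGTTTAC or GTAAACA was found in 4.53% of desert windows (3.79% to 5.41%) and 4.48% of distal ones (4.15% to 4.83%), against 3.36% and 3.51% beside the desert centres and 3.13% and 2.92% beside the distal ones. The E-box CACGTG was found in 2.07% of desert windows (1.59% to 2.70%) and 2.88% of distal ones, against 1.8% on each side of the desert centres, which lies within the interval at the centres, and 2.15% on each side of the distal ones. The E-box share of proximal windows was 5.33%, at a GC content of 52.7%. A match is a description of sequence and does not show that a factor binds.

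**Figure D5:**
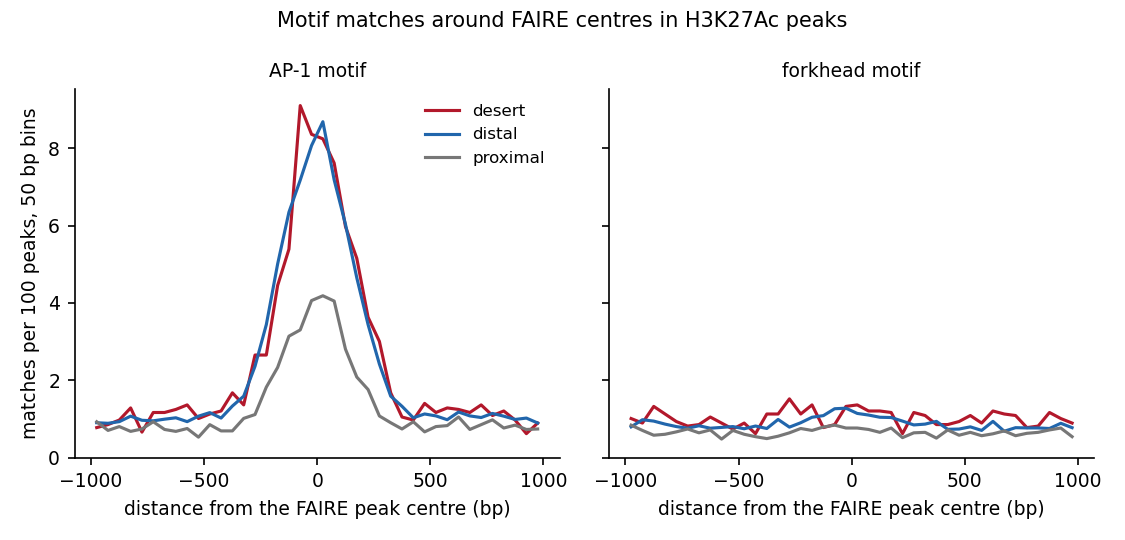
Matches per 100 peaks in bins of 50 bp against the distance in bp from the centre of the tallest FAIRE peak, for TGACTCA or TGAGTCA (AP-1, left) and TGTTTAC or GTAAACA (forkhead, right), in desert (n = 2561), distal (n = 14122) and proximal peaks (n = 8051) with FAIRE. AP-1 matches are most frequent within 100 bp of the centre, with up to 9.10 per 100 desert and 8.68 per 100 distal peaks in a bin, and forkhead matches were at most 1.28 per 100 distal peaks, beside the centre, and at most 1.52 per 100 desert peaks, 275 bp from it.

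The TGANTCA share was alike with H3K4me1 (37.8% of 2059) and without it (38% of 502), and was 35.3% (27.2% to 44.4%) in the 116 peaks with FAIRE at over 1000 kb from a start. In 4 classes of near equal size by FAIRE width it was 53.8% in the narrowest and 28.2% in the widest. From the lowest to the highest class of FAIRE height it was 35%, 34.7%, 40.5% and 41.3%. None of these values was tested, as windows of a cluster are neighbours.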

How the data were processed

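By the study's methods, the authors aligned reads to GRCh37 (hg19) with BWA and filtered out duplicates and poorly mapped reads. The 2 samples of each assay were examined on their own before their data were combined. MACS was run with its defaults for the histone marks and FindPeaks for FAIRE, each against its input. FAIRE peaks were then kept by a p-value between sample and input. The deposited histone value is a score, the negative log10 of the call's p-value multiplied by 10 (at least 50.0 for H3K27Ac), and the deposited FAIRE value is a signal, the coverage at the top of the peak. The lists give no read depth, and none was used. From the FAIRE list, 5 repeated rows were dropped.

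Distances run from peak bounds to starts of protein-coding transcripts of protein-coding genes (GENCODE 44). An overlap needed 1 shared base; overlaps and distances were tested on 3000 simulated intervals with bedtools 2.31.1, with 0 differences. Counts used python 3.11.15, numpy 2.4.6, pandas 2.3.3 and pysam 0.24.0. No p-value was computed.

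The members and lists were chosen with earlier results of these data known. Named loci were the 10 largest clusters (ties by summed width), the 6 highest scores (5 are given), the 5 widest, the 5 with the tallest FAIRE peak, 6 lncRNA genes by H3K4me3 score (ties by H3K27Ac score, with 2 more equal to the last in both), the 3 farthest and the 3 strongest with neither H3K4me1 nor FAIRE. Sequences from chromosome 8 were not printed, and windows there were not considered when windows with many matches were picked, by number of matches and then FAIRE height. The first window in this order, with 5 matches, was left out of those shown. Added after seeing the data were the H3K4me3 odds ratio, the odds ratios by distance, cluster size, lncRNA start and desert length, and the shares within classes of score, width and height. Alternatives covered start sites, distances, scores, overlap rules, classes and windows.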

Additional observations from a re-analysis of the deposited data

How the results depend on the processing

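No paired analysis was possible because the samples of an assay were combined into a single list. Of the alternative values, 53 changed little and are not listed, meaning that they lay within 1.5 times the reported count, within the reported interval, or, for odds ratios, on the same side of 1 with an interval that still excluded it. With a distance of 100 kb there were 6610 desert peaks in 3187 clusters, and with 500 kb 1002 in 604. FAIRE was then found at 74.1% and 67.3%, a lncRNA start within 10 kb at 19.7% and 14.8%, a protein-coding gene at 24.4% and 6.09%, and there were 6.47 and 3.6 peaks per Mb. At 500 kb H3K4me1 was at 61.1%, H3K4me3 at 12.48%, and the odds ratios against distal peaks were 0.805 for H3K4me1 and 0.922 for FAIRE. With H3K27Ac scores of at least 100, H3K4me1 was at 75.2%, FAIRE at 77.2%, the FAIRE odds ratio was 1.07 and the density 4.29 per Mb. With 1 start per gene, 33.5% lay in a protein-coding gene, 16.4% near a lncRNA start, 61.8% of flanking genes had H3K4me3, and the density was 5.88 per Mb. With starts of all transcripts, 7.27% lay in a protein-coding gene, the FAIRE odds ratio was 1.02 and the density 5.02 per Mb. With stricter other lists, the shares of H3K4me1, FAIRE and H3K4me3 were 49.0%, 44.7% and 6.73%, and the FAIRE odds ratio was 0.961. With the centre inside the other peak, FAIRE was at 59.9% and H3K4me3 at 9.22%. Without classes of width the odds ratios were 1.03 for H3K4me1 and 0.920 for FAIRE, with classes of score 0.986 for FAIRE, and against distal peaks from 50 kb 0.987 and 0.966. Within 2.5 kb, 9.25% had a lncRNA start. Of the alternatives chosen after seeing the data, windows of 400 bases gave 58.6% for TGANTCA, 8.59% for the forkhead motif and 3.98% for CACGTG, C or G in the middle of TGANTCA gave 28.7%, and the H3K4me3 odds ratio was 0.951 at 500 kb and 0.886 against distal peaks from 50 kb. The stricter settings use fewer peaks by construction, and for the other changes the cause was not tested. Without a list for each sample, no peak has an error between replicates.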

Other observations

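The other lists also had peaks in deserts without H3K27Ac. Of 3461 H3K4me1 peaks in deserts, 2447 (70.7%, 95% Wilson interval 69.2% to 72.2%) shared a base with an H3K27Ac peak, and of 4901 FAIRE peaks 3248 (66.3%, 64.9% to 67.6%), close to the 71.9% and 68.0% of their distal counterparts. For H3K4me3 the share was 366 of 796 (46.0%, 42.5% to 49.5%) in deserts and 68.2% (66.7% to 69.6%) among distal H3K4me3 peaks. The 796 desert H3K4me3 peaks had a median score of 120, against 312 for the distal ones. In all 3 lists the desert peaks without H3K27Ac were the weaker ones, with median values of 74.2 against 144 for H3K4me1, 48.1 against 66.0 for FAIRE and 101 against 152 for H3K4me3.

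Chromosome 19 had 2 desert peaks in 3.15 Mb of desert. One of them lay at the start of LINC00662, between ZNF254 and UQCRFS1, with an H3K27Ac score of 1840 and an H3K4me3 score of 3100, and it had neither H3K4me1 nor FAIRE.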
